A study of Mus musculus with 2 samples.

Results

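Type I interferon-stimulated genes are the antiviral genes that a cell switches on when interferon reaches its receptor. A list of 31 of them was followed by gene symbol across the cell classes, tumor cell states and both libraries of the series, and 29 of the 31 were found among the 32285 gene IDs of the files. Mx1 and Mx2 were not analysed here. The cells came from untreated mouse mammary tumors, 1 labelled Dll1+ and 1 labelled Dll1-, after sorting of live CD45- cells, that is, without leukocytes. Dll1 encodes a cell-surface ligand of the Notch pathway. The sources used here do not give the strain or age of the mice, or the basis on which a tumor was assigned to Dll1+ or Dll1-. Each group is a single tumor and a single 10x Single Cell v3 library, so no difference below has a replicate check, there is no test, and every interval covers counting error only.

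Type I interferons bind the receptor formed by Ifnar1 and Ifnar2, whose kinases Jak1 and Tyk2 phosphorylate Stat2. Stat2 and Irf9 are parts of the factor ISGF3, which enters the nucleus and binds the interferon-stimulated response element in the promoters of its target genes. Among the targets are sensors of viral RNA, enzymes that stop translation or degrade RNA, and Irf7 and Stat2 themselves, so the response can feed itself. In breast cancer these genes are known to be expressed by tumor cells as well as by leukocytes.

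The core letters of the response element can be found in the promoters of many members. Promoter sequence of 22 members was found in RefSeq for GRCm38.p6, covering 250 bases before to 50 bases after the start of the gene. The core GAAA, any 2 bases (NN), GAAA was searched on both strands, where a match on the opposite strand reads TTTC, NN, TTTC, and overlapping matches were counted separately. It was found in 13 of the 22 members (59.1%), against 1079 of 27025 genes with a promoter entry (3.99%). Stretches of 80 bases are shown for 5 members whose levels are followed below, 5′ to 3′ on the strand of the gene, with the matches in capitals. They lie at chr4:156200846-156200925 on the minus strand for Isg15, at chr19:34640759-34640838 on the plus strand for Ifit1, at chr19:34583355-34583434 on the plus strand for Ifit3, at chr12:26456528-26456607 on the minus strand for Rsad2 and at chr8:71537555-71537634 on the minus strand for Bst2.
Isg15: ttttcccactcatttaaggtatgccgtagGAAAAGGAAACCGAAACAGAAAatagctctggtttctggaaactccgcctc
Ifit1: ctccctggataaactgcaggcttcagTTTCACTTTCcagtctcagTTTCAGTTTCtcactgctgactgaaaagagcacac
Ifit3: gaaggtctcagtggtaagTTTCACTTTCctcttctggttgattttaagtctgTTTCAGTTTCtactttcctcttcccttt
Rsad2: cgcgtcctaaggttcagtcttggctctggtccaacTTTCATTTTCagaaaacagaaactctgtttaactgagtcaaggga
Bst2: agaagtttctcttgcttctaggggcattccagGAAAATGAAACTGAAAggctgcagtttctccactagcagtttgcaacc

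Isg15 carried 3 overlapping matches in 1 run, and Ifit1, Ifit3 and Bst2 carried 2 each. The stretch of Ifit3 is repeated base for base in the promoter of its neighbour Ifit3b, at chr19:34607751-34607830. No match lay in the windows of Ifi44, Oasl1, Oasl2, Irf7, Xaf1, Ifi35, Cmpk2, Irf9 and Ifit2. Of the other lists followed here, 25 of 50 other interferon-stimulated genes (50%), 10 of 17 interferon-gamma genes (58.8%) and 11 of 20 interferon ligand genes (55%) held the core. It was also in 1 of 10 receptor and signal transducer genes (10%). Of the genes of nucleic acid sensing 1 of 11 (9.09%) held it, and of the feedback inhibitors 1 of 6 (16.7%). A match is a description of these letters and not a binding site, and its absence says only that these letters are not in the window.

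The files held 117230907 UMIs (unique molecular identifiers, 1 per captured RNA molecule) over 13819 barcodes in the Dll1+ library and 135960457 over 13097 in the Dll1- library. After filtering, 9685 and 10132 cells were left, with medians of 7882 and 9904 UMIs and 5.39% and 3.54% mitochondrial UMIs, and 57 and 61 of these cells carried a barcode that both libraries share. Epithelial-like tumor cells were 8220 and 8713 of them, and the 10 epithelial markers, among them Epcam, Krt8 and Krt18, all had UMIs. Krt5-led cells, a cluster led by the basal keratin gene Krt5, numbered 332 and 315, endothelial-like cells 289 and 280, pericyte-like cells 377 and 175 and fibroblast-like cells 331 and 574. Pericyte-like cells had all 9 pericyte markers, but the 10 fibroblast markers summed to more in them. The sums were 10827 against 8944 CPM in the Dll1+ library and 14838 against 6892 CPM in the Dll1- library. Dll1 itself was at 53.4 and 3.97 CPM in the epithelial-like cells. Its level was higher in the Dll1+ library in each of the 5 tumor cell states compared below, for example 11.2 against 5.07 CPM in the Klk10/Muc15-led state. In the Ube2c/Nusap1-led state this rests on 10 and 24 UMIs, with overlapping intervals. Dll1 was highest in Krt5-led cells and near level there, at 88.8 and 84.3 CPM, and it was at 28.97 and 24.36 CPM in endothelial-like cells, both with overlapping intervals. Pericyte-like cells had 13 and 2 Dll1 UMIs and fibroblast-like cells 8 and 0. In the epithelial-like cells macrophage markers summed to 15.3 and 10.9 CPM and those of T and NK cells to 1.39 and 0.42 CPM.

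Among the 5 classes compared, the interferon-stimulated genes had their highest summed level in the pooled tumor cells. Their 29 members together took 7401 CPM (counts-per-million, over all UMIs of the cells in question, with an interval of 7382 to 7419) in the epithelial-like cells from the Dll1+ tumor and 6199 CPM (6184 to 6214) in those from the Dll1- tumor. Endothelial-like cells were at 2526 and 2541 CPM and pericyte-like cells at 2891 and 2923 CPM, level between the libraries. Fibroblast-like cells were at 1758 CPM (Dll1+) and 2864 CPM (Dll1-), and Krt5-led cells at 1022 and 1979 CPM. In the Dll1+ library 28 of the 29 members were highest in epithelial-like cells among the 5 classes and 1 in endothelial-like cells. In the Dll1- library 25 were highest in epithelial-like, 2 in endothelial-like and 2 in fibroblast-like cells. The tumor cell states described below were not alike in this. In the Dll1+ library those led by Klk10, Wap, Rbp7 and Ube2c summed to 1855 to 2753 CPM, under its pericyte-like cells, and the others to more. Macrophage-like cells, few after the sort, summed to 5370 and 4160 CPM and were not among the 5 classes.

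Pooled over all tumor cells of a library, the members' median was close to that of all genes, though this depended on the scaling and on the depth of the cells counted. Of the 29 members 6 were at least 1.5-fold higher in the Dll1+ library, 1 was at least 1.5-fold lower and 22 lay between. Of the 15265 genes with at least 30 UMIs in these cells, 20.6% passed 1.5-fold upward in the Dll1+ library and 5.88% downward. The median log2 ratio of the members, Dll1+ over Dll1- on the scale of CPM plus 1, was 0.21 (0.16 to 0.25, the medians of the members' lower and upper bounds), beside 0.20 over all genes. With edgeR's TMM factors, which scale both libraries to most of their genes, the members' median was -0.049, and centred on the median of all genes it was 0.0021. Past 1.5-fold, 4 members were then higher and 5 lower with TMM factors, and 4 higher and 4 lower when centred. Of all genes 13.1% were higher and 10.2% lower with TMM factors, and 13.2% and 10.1% when centred. Centring took 0.20 off each ratio below, so Irf7, Irf9, Ddx58, Oas3, Oasl1, Rsad2 and Ifi44, slightly higher in the Dll1+ library as they stand, turned slightly lower, and Ifit1 and Cmpk2 came within 1.5-fold. With each cell thinned to 2000 UMIs, so that cells weigh alike, the members' median was 0.58 against 0.21 over all genes, and 14 were higher and 1 lower, beside 25.3% and 8.16% of all genes.

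**Figure D1:**
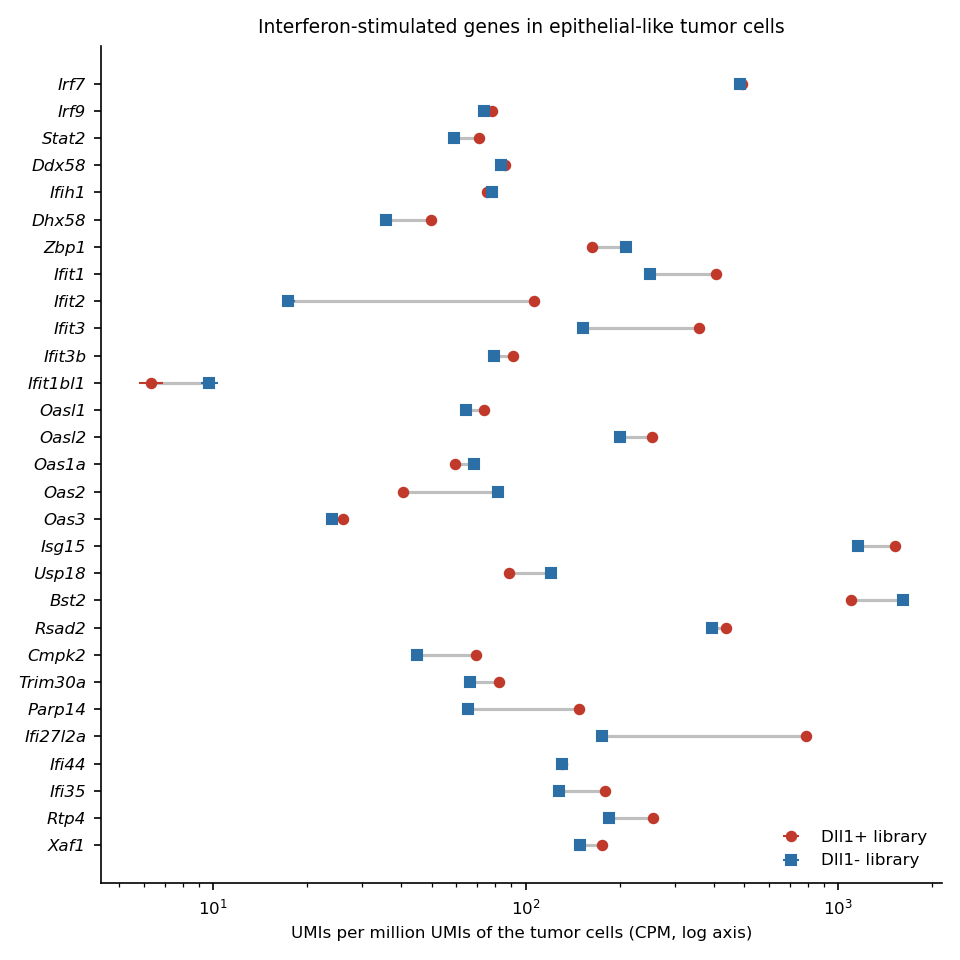
Level of each of the 29 members in epithelial-like tumor cells, as CPM on a log axis, with circles for the Dll1+ and squares for the Dll1- library and exact Poisson 95% bars that are mostly smaller than the symbols. Ifit2 and Ifi27l2a lie furthest apart in favour of the Dll1+ library, Oas2 in favour of the Dll1- library, and Irf7 and Ifi44 coincide.

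The IFIT proteins bind foreign RNA ends and block their translation. Their genes sit side by side on chromosome 19 of mm10, Ifit2 from 34550694 to 34576419 and Ifit1 from 34640871 to 34650009, both on the plus strand. Ifit2 was at 106 CPM in Dll1+ and 17.4 CPM in Dll1- tumor cells (log2 ratio 2.54). Ifit3 was at 359 and 152 CPM (1.23) and Ifit1 at 406 and 250 CPM (0.70). These 3 were among the 6 members past 1.5-fold. Their neighbours were not: Ifit3b was at 91.4 and 79.1 CPM (0.21), and Ifit1bl1 at 6.32 and 9.73 CPM, higher in the Dll1- library (-0.55). Ifit3 and Ifit3b share 8.25% of the 31-base words in the last 600 bases of their transcripts, so few of their reads could be split between them.

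The other 3 members past 1.5-fold were Ifi27l2a, Parp14 and Cmpk2. Ifi27l2a, a small hydrophobic protein of membranes, was at 789 and 175 CPM (log2 ratio 2.16). Parp14, an ADP-ribosyltransferase, was at 148 and 65.2 CPM (1.17). Cmpk2, a nucleotide kinase of mitochondria, was at 69.3 and 44.9 CPM (0.62). Rsad2, which encodes viperin and lies beside Cmpk2 on chromosome 12, was nearly level at 438 and 394 CPM (0.15).

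In the oligoadenylate synthetase family, the active enzymes sense double-stranded RNA and activate RNase L. Of this family, Oas2 was the 1 member past 1.5-fold in the other direction. It had 40.5 CPM in Dll1+ tumor cells against 81.7 CPM in Dll1- tumor cells (log2 ratio -0.99). Its relatives on chromosome 5 lay between, Oas1a at 59.6 and 68.5 CPM (-0.20), Oas3 at 26.0 and 24.0 CPM (0.11), Oasl1 at 73.3 and 64.2 CPM (0.19) and Oasl2 at 253 and 200 CPM (0.33). Oas1a shares 73.5% of its 3′ end words with Oas1g, so its counts are uncertain.

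The signal transducers and sensors were close to level. Irf7, the factor that amplifies interferon production, was at 491 and 484 CPM (log2 ratio 0.02), Irf9 at 77.9 and 73.4 CPM (0.08) and Stat2 at 70.6 and 58.8 CPM (0.26). The RNA helicases Ddx58 (RIG-I) and Ifih1 (MDA5) were at 85.9 and 83.3 CPM (0.04) and at 75.0 and 77.8 CPM (-0.05). Dhx58 (LGP2), their regulator, was at 49.6 and 35.8 CPM (0.46). Zbp1, a sensor of Z-form nucleic acid that can trigger cell death, was lower in the Dll1+ library, at 163 and 209 CPM (-0.36).

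The 2 members with the highest levels went in opposite directions, both within 1.5-fold, though Bst2 passed it when centred (-0.76). Isg15, a ubiquitin-like protein that is attached to other proteins, was at 1515 and 1159 CPM (log2 ratio 0.39). Bst2, or tetherin, which holds budding virus at the membrane, was at 1095 and 1611 CPM (-0.56). Usp18, which removes Isg15 and dampens receptor signaling, was at 88.7 and 121 CPM (-0.44). The remaining members, Ifi44 (131 and 130 CPM), Ifi35 (180 and 128 CPM), Rtp4 (256 and 185 CPM), Xaf1 (175 and 149 CPM) and Trim30a (82.1 and 66.4 CPM), had log2 ratios from 0.01 to 0.49. Trim30a shares 18.0% of its 3′ end words with Trim30d.

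The tumor cells fell into 10 states, and the members' levels differed far more among states than between the pooled libraries. States are clusters of tumor cells from both libraries, called here by leading genes. The clustering used the members along with all other variable genes, so a state's level of them is a description. In the Dll1+ library 4800 tumor cells (58.4%) lay in a state led by Prpmp5 and Cxcl10, which held 2 Dll1- cells. Its members summed to 12707 CPM. It took 43.6% of the Dll1+ tumor cells' UMIs and 74.8% of their member UMIs. Isg15 was at 2672 CPM in it and 622 CPM in all other Dll1+ tumor cells, and Bst2 at 1690 and 636 CPM. All 29 members were higher in it than in the other Dll1+ tumor cells, by log2 ratios from 0.78 for Irf9 to 2.98 for Ifit2. How many of all genes were higher in this state was not counted, and the clustering that formed it used the members. Of their Dll1+ tumor cell UMIs it held from 57.2% (Irf9) to 86.3% (Ifit2). Cxcl10 is itself induced by interferons, and Ifit2 and Ifi27l2a were among the state's 20 leading genes.

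Other states of mostly Dll1+ cells had lower sums. A state led by Timp3 and Aldh1a3, with 673 Dll1+ and 3 Dll1- cells, summed to 6898 CPM. One led by Rbp7 and Bex2, with 1005 Dll1+ cells and no Dll1- cell, summed to 2753 CPM. A small state led by the squamous genes Sprr1a and Krt6a was level between the libraries, at 4553 CPM in 14 Dll1+ and 4403 CPM in 126 Dll1- cells.

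**Figure D2:**
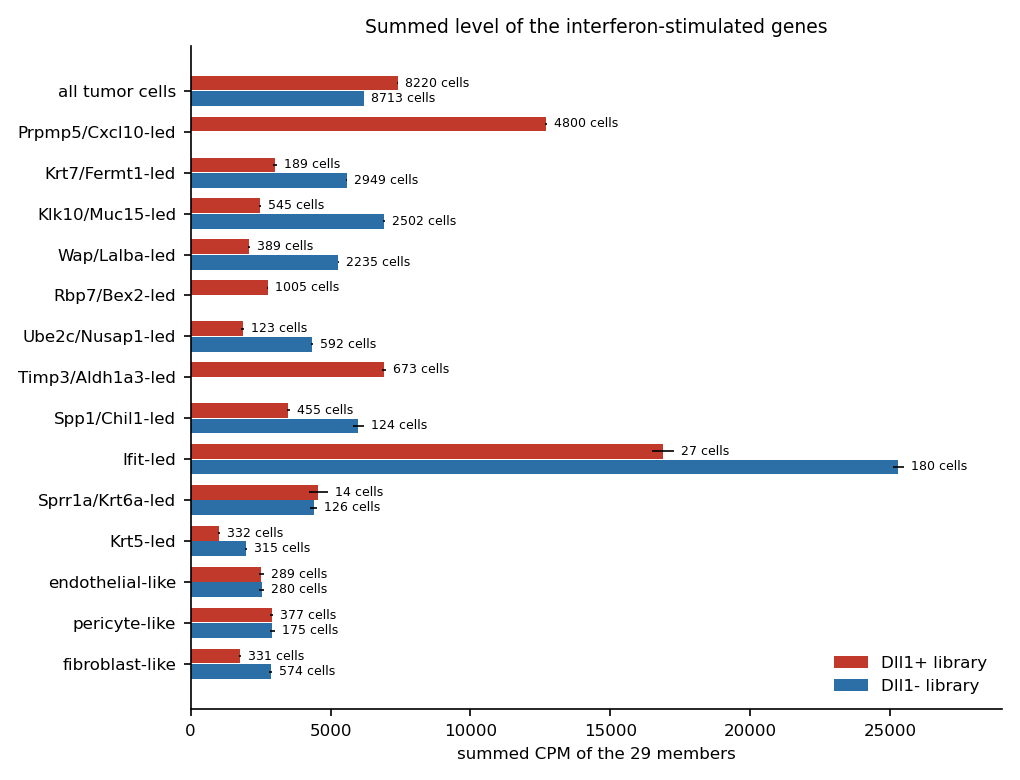
Summed CPM of the 29 members in all tumor cells, in each tumor cell state and in the other classes, by library, with exact Poisson 95% bars and the number of cells, and no bar where a library had under 10 cells. The Ifit-led state reaches 25290 CPM in the Dll1- library, the Prpmp5/Cxcl10-led state 12707 CPM in the Dll1+ library, and in the 5 states well filled by both libraries the Dll1- bar is the longer one.

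Within each of the 5 states that held at least 50 cells of both libraries, the members were lower in the Dll1+ cells. In the state led by Klk10 and Muc15 (545 Dll1+ and 2502 Dll1- cells) they summed to 2484 and 6916 CPM. In that led by the milk protein genes Wap and Lalba (389 and 2235 cells) they summed to 2095 and 5282 CPM. In that led by the mitotic genes Ube2c and Nusap1 (123 and 592 cells) they summed to 1855 and 4353 CPM. In that led by Krt7 and Fermt1 (189 and 2949 cells) they summed to 3010 and 5572 CPM, and in that led by Spp1 and Chil1 (455 and 124 cells) to 3494 and 5999 CPM. So the direction was the same in all 5, and opposite to that of the sum over all tumor cells. The median UMIs per cell were near level in 4 of them, for example 12321 and 11763 in the Klk10/Muc15-led state, but 7145 and 3089 in the Spp1/Chil1-led state.

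Counted by gene, 27 of 29 members in the Klk10/Muc15-led state were lower in Dll1+ cells by 1.5-fold or more and 0 higher, beside 4.62% of all genes lower and 6.77% higher. The median log2 ratio was -1.39, against 0.09 over all genes. In the Wap/Lalba-led state 21 of 29 were lower and 0 higher, beside 5.27% and 11%, with medians of -0.92 and 0.15. In the Ube2c/Nusap1-led state 21 of 29 were lower and 2 higher, beside 6.95% and 8.19%, with medians of -1.01 and 0.08. In the Krt7/Fermt1-led state 18 of 29 were lower and 0 higher, beside 5.95% and 19.1%, with medians of -0.71 and 0.19. In the Spp1/Chil1-led state 14 of 28 were lower and 1 higher, beside 14.9% and 12.9%, with medians of -0.59 and -0.05.

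The same held when the cells were clustered without the members and the other interferon lists. Again 5 states had at least 50 cells of both libraries, led by the same genes. The members' median log2 ratios were -1.23 (Wap/Lalba-led), -0.71 (Krt7/Fermt1-led), -1.61 (Klk10/Muc15-led), -0.90 (Ube2c/Nusap1-led) and -0.94 (Spp1/Chil1-led). A state led by Prpmp5 and Tmem213 with 3807 Dll1+ and 3 Dll1- cells again formed, with the members at 14530 CPM.

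**Figure D3:**
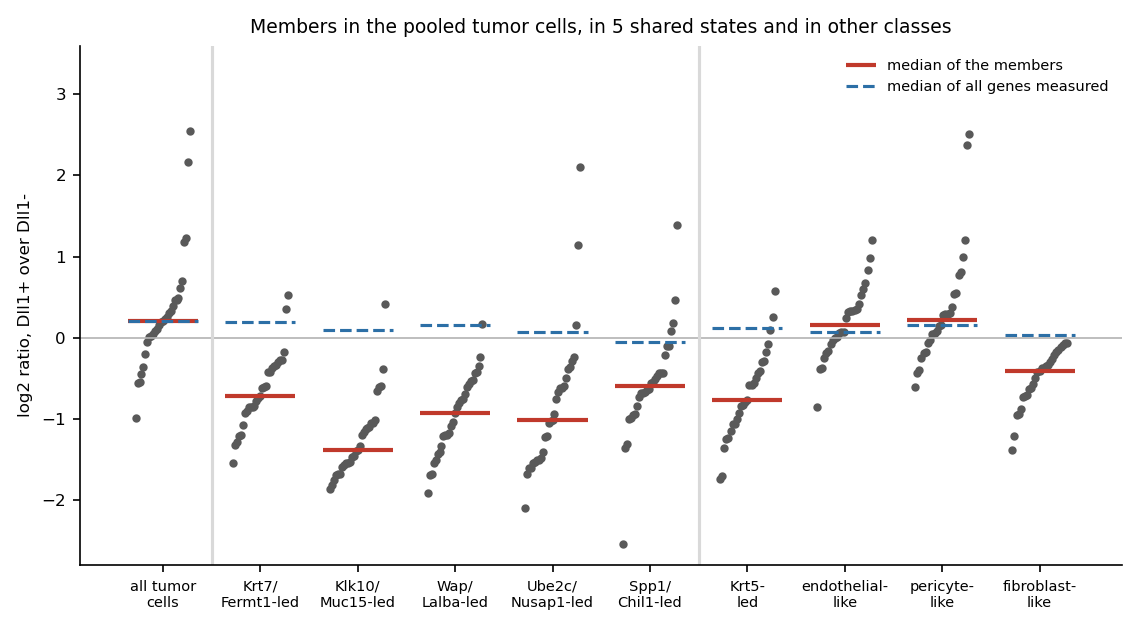
Log2 ratio of each measured member, Dll1+ over Dll1-, as a dot, in all tumor cells, in the 5 shared tumor cell states and in the 4 other classes, with the median of the members as a solid line and of all genes measured as a dashed line. The 2 medians coincide in all tumor cells (0.21 and 0.20), and the members' median lies below that of all genes in each of the 5 states and in Krt5-led and fibroblast-like cells.

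Gene by gene, 9 members were lower past 1.5-fold in Dll1+ cells of all 5 states: Bst2, Ifi44, Oas1a, Oas2, Oas3, Rsad2, Trim30a, Usp18 and Zbp1. Oas2 was at 26.7 against 92.2 CPM in the Klk10/Muc15-led and 38.7 against 230 CPM in the Spp1/Chil1-led state, and its mean log2 ratio over the 5 states was -1.81. Bst2 was at 525 against 1851 CPM in the Klk10/Muc15-led state and 420 against 1582 CPM in the Wap/Lalba-led state, with a mean of -1.60. A further 6 members were lower in 4 states, 8 in 3, 3 in 2 and 2 in 1. The same count by number of states was not made over all genes. Ifit2 alone was lower past 1.5-fold in none of the 5, and its log2 ratio was above 0 in each, from 0.17 to 1.39. Clustered without interferon genes, it was above 0 in 3 of the 5 and below 0 in the Wap/Lalba-led (-0.63) and Klk10/Muc15-led (-0.91) states. Its levels there were low, for example 22.8 and 15.5 CPM in the Krt7/Fermt1-led state, and the highest ratio, in the Spp1/Chil1-led state, rests on 59 and 3 UMIs.

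On average over the 5 states, 5 of the 6 members higher in the pooled comparison were lower. Ifi27l2a was at 94.7 CPM in Dll1+ and 283 CPM in Dll1- cells of the Klk10/Muc15-led state, and its mean log2 ratio over the 5 states was -0.98 where the pooled one was 2.16. Ifit1 had a mean of -0.77 and, like Ifi27l2a, a ratio below 0 in all 5 states. Ifit3 had a mean of -0.50, Parp14 of -0.40 and Cmpk2 of -0.27, each below 0 in 4 of the 5. Without the Prpmp5/Cxcl10-led state the pooled median over the members was -0.83, with 22 members lower and 0 higher, beside 5.05% and 19.9% of all genes and an all-gene median of 0.20.

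A state of 27 Dll1+ (0.33%) and 180 Dll1- tumor cells (2.07%) was led by the members themselves. Of its 20 leading genes 10 were members: Ifit1bl1, Cmpk2, Ifit3b, Rsad2, Ifit3, Ifit2, Ifit1, Oasl1, Usp18 and Ifih1. The members summed to 16881 CPM in its Dll1+ and 25290 CPM in its Dll1- cells. Rsad2 was at 4516 CPM in its Dll1- cells and 298 CPM in all other Dll1- tumor cells, and Ifit2 at 419 and 8.05 CPM. Ifi27l2a, at 187 and 175 CPM, was close to level. Markers of T and NK, B and dendritic cells had 0 UMIs in its Dll1+ and 1 in its Dll1- cells, Ptprc (CD45) had 0 in both, and macrophage markers were at 39.7 and 6.65 CPM (16 UMIs in each), against 15.2 and 10.97 CPM in other tumor cells. The neutrophil list was at 241 and 684 CPM in these cells and 213 and 570 CPM in other tumor cells, from 1 and 2 of its 7 genes. Median UMIs per cell were 14082 and 13245, above the 8013 and 10641 of all tumor cells, and what this depth adds was not tested.

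The members differed widely in how much of their RNA this small state held. In the Dll1- library its 2.07% of tumor cells held 80.8% of the UMIs of Ifit1bl1, 54.8% of Ifit2, 42.7% of Cmpk2, 32.1% of Ifit3b, 30.6% of Ifit3, 26.2% of Rsad2 and 20.3% of Ifit1. At the other end were Bst2 with 3.76%, Irf9 with 3.20% and Ifi27l2a with 2.43%. In the Dll1+ library the shares ran from 0.15% (Ifi27l2a) to 10.8% (Ifit1bl1). Clustered without interferon genes the state did not form, and its Dll1- cells were spread over the Wap/Lalba-led (87 cells), Krt7/Fermt1-led (47), Klk10/Muc15-led (37) and Ube2c/Nusap1-led (9) states.

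**Figure D4:**
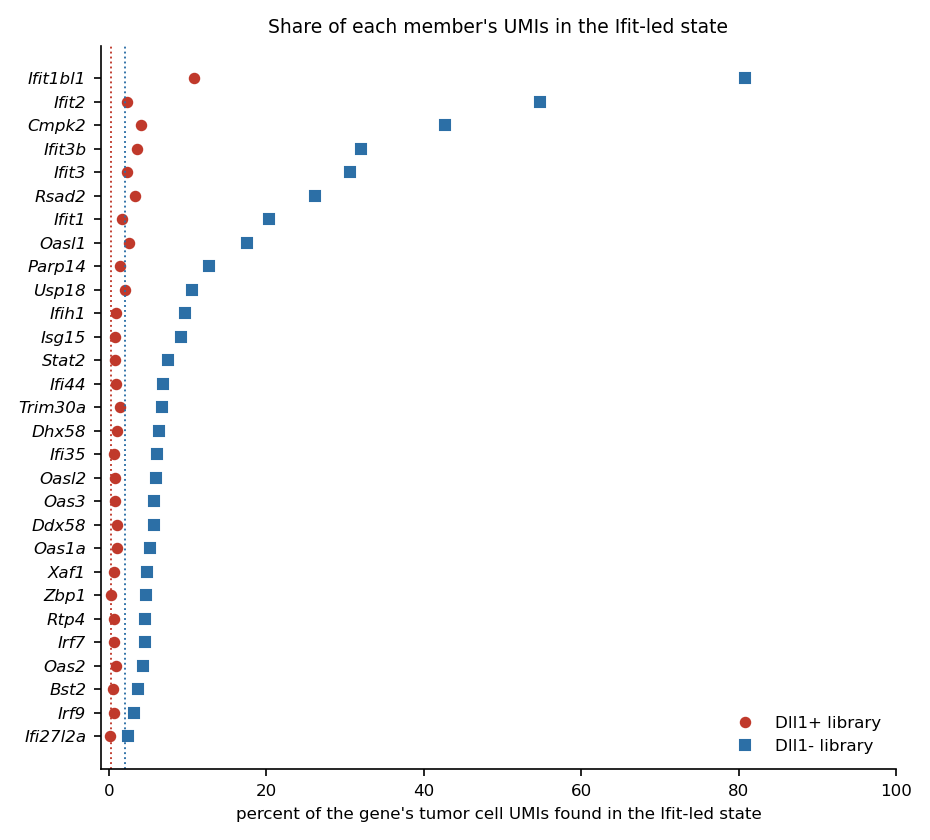
Share of each member's tumor cell UMIs that lay in the Ifit-led state, in percent, with circles for the Dll1+ and squares for the Dll1- library and dotted lines at the state's share of each library's tumor cells. In the Dll1- library the shares run from 80.8% for Ifit1bl1 to 2.43% for Ifi27l2a, while in the Dll1+ library no member passes 10.8%.

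**Figure D5:**
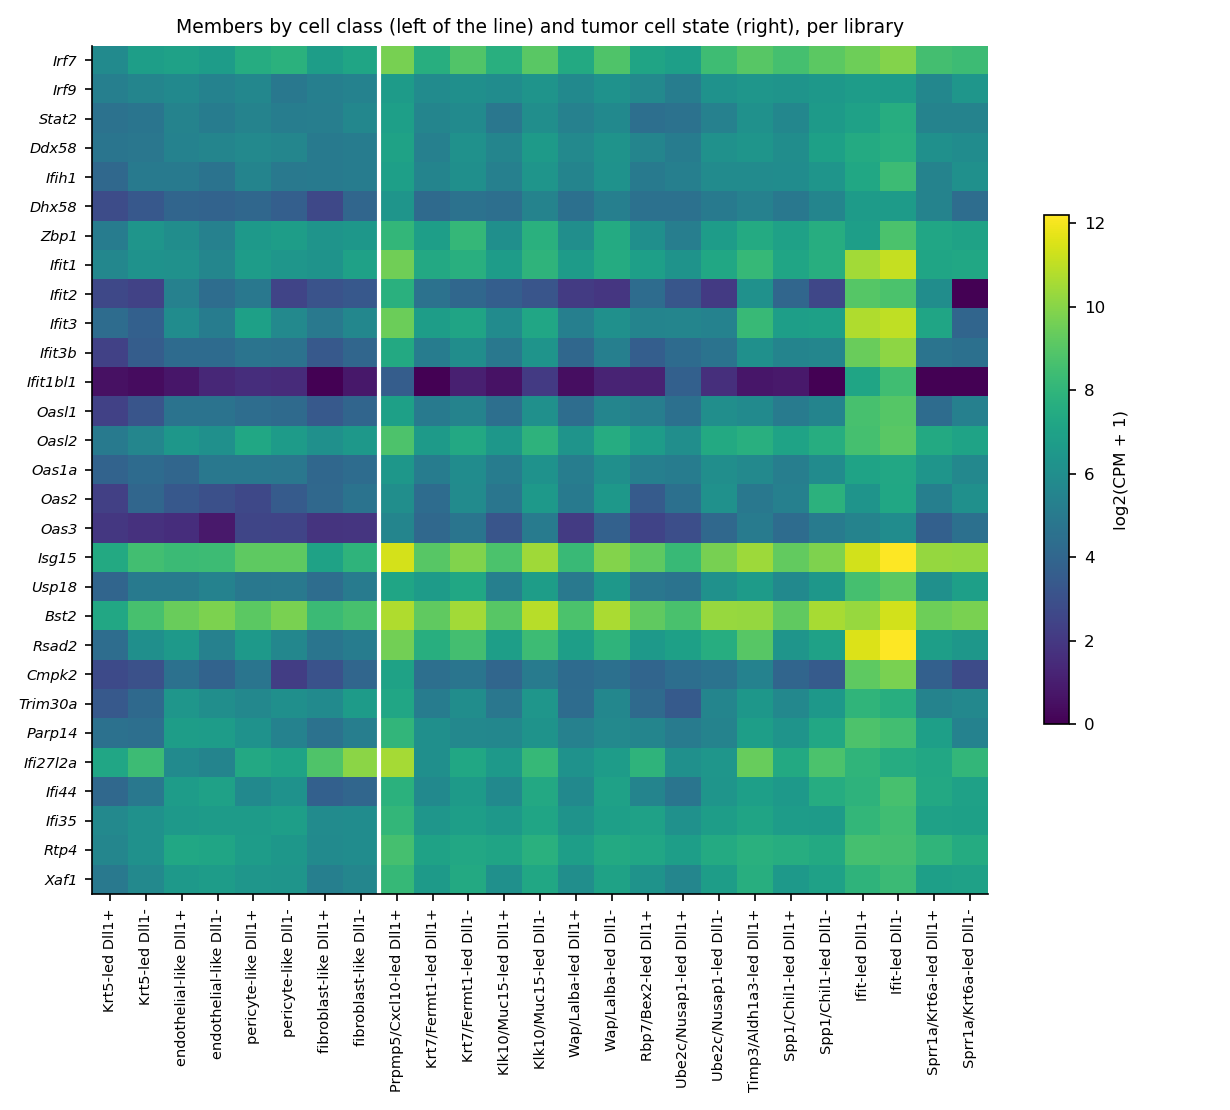
Level of each member as log2 of CPM plus 1 in the 4 other classes (left of the white line) and the tumor cell states (right), by library, leaving out states with under 10 cells of a library. The pale Ifit-led and Prpmp5/Cxcl10-led columns stand out for nearly every member, and Ifi27l2a is the member with a high level in fibroblast-like cells.

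Cell by cell, the share of tumor cells in which several members were found depended on the depth at which they were compared. To compare cells of unequal depth each was thinned to 2000 UMIs, which left out 616 Dll1+ and 201 Dll1- shallower cells. Of the Dll1+ tumor cells 68.4% (67.4 to 69.5) then had at least 5 different members, and of the Dll1- tumor cells 65.1% (64.0 to 66.1), against 91.9% and 93.7% unthinned. Thinned to 1000 UMIs the shares were 51.6% and 34.3%. The cutoff is a point in a range, since 495 and 1023 cells had exactly 4 members and 507 and 1122 exactly 5. The Dll1+ cells were the more uneven: at least 8 members were found in 49.6% against 29.98%, and no member in 3.93% against 1.01%. The variance of member UMIs per cell over their mean was 18.5 in the Dll1+ and 8.99 in the Dll1- library. The means differed too, at 18.5 and 12.2 UMIs. By the share of member UMIs in the top 10% of cells the libraries were closer, at 32.4% and 29.3%.

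The Prpmp5/Cxcl10-led state held most of the Dll1+ cells with many members. In it 89.8% had at least 5, and it held 84.1% of the Dll1+ cells with at least 8. Without it 40.2% (38.5 to 41.9) of the Dll1+ tumor cells had at least 5. In the Klk10/Muc15-led state the shares were 29.8% of Dll1+ and 74.3% of Dll1- cells, in the Wap/Lalba-led state 25.1% and 63.6%, and in the Ube2c/Nusap1-led state 14.05% and 54.9%. Among fibroblast-like cells 14.2% (10.5 to 18.5) and 22.0% (18.6 to 25.7) had at least 5, and among Krt5-led cells 8.64% (5.82 to 12.2) and 14.7% (10.9 to 19.2). No class here is known to lack these genes, and how much of the shares in the other classes comes from free RNA of the tumor cells was not tested.

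Members varied together from cell to cell, more so in the Dll1+ library. Over 7604 Dll1+ and 8512 Dll1- thinned tumor cells, the median Pearson correlation over 378 pairs of 28 members was 0.170 and 0.0864. The highest was that of the neighbours Rsad2 and Cmpk2, 0.678 and 0.607. Irf9 was the most loosely tied, with a median of 0.0649 and 0.0228. The cells of a library share its depth and its states, and in counts this sparse a weak correlation is no finding.

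Over 23 sums by class or state and library, the genes outside the list whose level followed the mean of the members most closely were Znfx1 (Pearson r = 0.938), Ddx60 (0.938), Dtx3l (0.925), Gbp3, Parp10, Parp9, Trim25, Daxx, Ogfr and Eif2ak2 (0.883). Of the 10, 8 were in the lists of interferon genes followed here. Znfx1 ran from 13.1 to 189 CPM over these sums. The sums share the 2 libraries and, for states, the class they come from.

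Outside the tumor cells the members were lower in the Dll1+ library in 2 classes and near level in the other 2. In Krt5-led cells 14 of 27 measured members were at least 1.5-fold lower and 0 higher, beside 8.19% of all genes lower and 15.9% higher, with a median log2 ratio of -0.76 against 0.12. The 14 were 7 with cells thinned to 2000 UMIs, where fewer genes reach 30 UMIs, and 9 with predicted doublets left in. The all-gene shares lower were then 12% and 7.32%. Isg15 was at 170 and 357 CPM, Bst2 at 156 and 403 CPM and Rsad2 at 19.4 and 65.5 CPM. These cells held 1384 and 485 CPM of fibroblast markers and 1248 and 2267 CPM of epithelial markers, and the part of either in the result was not tested.

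In fibroblast-like cells 10 of 27 members were at least 1.5-fold lower and 0 higher, beside 5.32% and 8.56%, with medians of -0.41 and 0.03. The 10 were 5 with cells thinned, and 6 with doublets left in or with 10 CPM added in place of 1. The all-gene shares lower were then 9.26%, 5.12% and 2.1%, in the same order. All 27 members had ratios below 0. Isg15 was at 127 and 244 CPM, Trim30a at 55.1 and 102 CPM, and Ifi27l2a, the member with the highest level in these cells, at 459 and 1062 CPM. Among fibroblast-like cells 4 sub-states had 30 cells or more from both libraries, and in them 4 of 22 members (Smpd3/Opcml-led), 5 of 22 (Saa3/Ccl19-led), 8 of 17 (Mgp/Acta2-led) and 17 of 22 (a dividing sub-state led by Cenpa and Birc5) were lower. All genes were lower at 13.8%, 6.33%, 12.1% and 9.87% in the same order. In the Smpd3/Opcml-led one, with 35 Dll1+ cells, 5 members were higher and the median was 0.17; in the others 0, 1 and 1 were higher and it was -0.45, -0.48 and -1.08. The Smpd3/Opcml-led sub-state held 283 of the Dll1- and 35 of the Dll1+ fibroblast-like cells.

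In endothelial-like cells 5 of 26 members were at least 1.5-fold higher in the Dll1+ library and 1 lower, beside 10.9% and 4.03%, with medians of 0.16 and 0.06. Those higher were Rsad2 (92.2 and 39.6 CPM), Ifit2, Ifit3, Cmpk2 and Zbp1, and Oas1a (15.1 and 28.2 CPM) was lower. In pericyte-like cells 6 of 26 were higher and 1 lower, beside 17.7% and 3.64%, with medians of 0.22 and 0.15. Those higher were Cmpk2 (25.8 and 3.70 CPM, 63 and 4 UMIs), Ifit2 (28.2 and 4.63 CPM, 69 and 5 UMIs), Ifit3 (120 and 51.8 CPM), Rsad2, Irf9 and Parp14, and Bst2 (558 and 851 CPM) was lower. With predicted doublets left in, both medians turned below 0, to -0.085 and -0.20.

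Of the genes around the pathway, the ligand stood out. Among 21 interferon genes only Ifnb1, interferon beta, and Ifnl2, of the lambda family, reached 30 UMIs in the tumor cells. Ifnl2 had 9 and 37 UMIs. Ifng had 0 UMIs in either library over the 5 classes, which allows up to 3 UMIs in each. Leukocytes had been sorted out, so this says nothing of Ifng made by them. Ifnb1 had 85 UMIs in 19 Dll1+ tumor cells (1.02 CPM, 0.82 to 1.26) and 1250 UMIs in 86 Dll1- tumor cells (11.9 CPM, 11.2 to 12.5), a log2 ratio of -2.67. Up to 29 and 153 of these UMIs came from 1 cell.

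Ifnb1 UMIs came from few cells and few states. In the Dll1- library the Krt7/Fermt1-led state held 876 Ifnb1 UMIs in 59 of 2949 cells, 70.1% of those in tumor cells. The Ifit-led state held 342 in 8 of its 180 cells, 27.4%, and the highest level, 142 CPM. The Klk10/Muc15-led state, where the Dll1- members summed highest among the 5 shared states, held 16 UMIs. In the Dll1+ library 65 of the 85 UMIs came from 10 cells of the Timp3/Aldh1a3-led state, while the 4800 cells of the Prpmp5/Cxcl10-led state held 11. Dll1- tumor cells with an Ifnb1 UMI had the members at 11756 CPM and those without at 6144 CPM. Outside the Ifit-led state these levels were 10348 CPM (78 cells) and 5712 CPM. In the Dll1+ library they were 9123 CPM (19 cells) and 7396 CPM. Within the Dll1- cells of the Ifit-led state the order was the other way, with 22882 CPM in the 8 cells with an Ifnb1 UMI and 25412 CPM in the 172 without.

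The genes of the type I receptor were near level in the tumor cells. Ifnar1 was at 16.3 and 14.9 CPM and Ifnar2 at 61.7 and 55.9 CPM. Of 12 measured receptor and signal transducer genes outside the members, 3 were higher past 1.5-fold in the Dll1+ library and 0 lower. Among these were Ifnlr1, the lambda receptor (21.2 and 5.65 CPM), and Ifngr1, an interferon-gamma receptor chain (28.6 and 16.5 CPM). In the Ifit-led state Ifnar1 was at 12.4 and 13.3 CPM and Ifnar2 at 74.5 and 62.4 CPM, close to their levels in all tumor cells. Of 12 measured genes of nucleic acid sensing 3 were higher (Ticam1, Tmem173 and Tlr4) and 0 lower, and of 7 feedback inhibitors 1 was higher, Cish (23.4 and 7.09 CPM), and 0 lower. The counts of these lists are near the 20.6% of all genes that were higher and the 5.88% that were lower.

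Genes known for their induction by interferon-gamma differed more in the pooled tumor cells. Of 23 measured 16 were at least 1.5-fold higher in the Dll1+ library and 1, Nos2, was lower, beside 20.6% and 5.88% of all genes, with a median log2 ratio of 1.51 against 0.20. The highest ratios were those of the chemokines Cxcl9 (71.9 and 0.26 CPM) and Cxcl10 (1053 and 19.8 CPM) and of the GTPase Gbp4 (21.6 and 0.87 CPM). Within the 5 shared states they went both ways. In the Krt7/Fermt1-led state 2 of 17 were higher and 2 lower (median 0.05), in the Klk10/Muc15-led state 4 and 6 of 19 (-0.05) and in the Wap/Lalba-led state 5 and 2 of 18 (0.10). In the Ube2c/Nusap1-led state 5 of 15 were higher and 1 lower (0.32), and in the Spp1/Chil1-led state 7 and 2 of 15 (0.34). All genes were higher at 19.1%, 6.77%, 11%, 8.19% and 12.9% in the same order. They were lower at 5.95%, 4.62%, 5.27%, 6.95% and 14.9%, so the 6 of 19 lower in the Klk10/Muc15-led state also exceed the all-gene share. The highest ratio of a single gene was 4.83, and clustered without interferon genes the median in the Spp1/Chil1-led state was 0.59, with 9 of 17 higher. The medians of the members in the 5 states lay between -1.39 and -0.59. In Krt5-led cells 8 of 14 were higher and 1 lower, beside 15.9% and 8.19% of all genes, with a median of 1.17, in the class in which 14 of 27 members were lower. The difference between the lists was not tested.

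A further 56 interferon-stimulated genes outside the list behaved between these. In the pooled tumor cells 24 of 52 measured were higher and 0 lower, beside 20.6% and 5.88% of all genes, with a median of 0.43 against 0.20. Within the shared states their medians were below 0, at -0.31, -0.71, -0.46, -0.63 and -0.54 in the order just given. Mndal (23.2 and 0.36 CPM), Ifi203 (21.1 and 0.72 CPM) and Slfn5 (14.98 and 0.84 CPM) had the highest ratios in tumor cells. The same 3 genes were abundant in the stroma of both tumors, for example Slfn5 at 389 and 496 CPM in fibroblast-like and 207 and 199 CPM in endothelial-like cells. The lowest ratios were those of Oas1g (-0.50), Lgals9 (-0.47) and Apol9b (-0.45).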

How the data were processed

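The deposited values are raw UMI counts per gene and barcode, which the authors made with Cell Ranger, version 4.0.0 per the file headers; the submitters' processing notes name the build mm10. Barcodes under 1000 UMIs or 500 genes, or with over 20% mitochondrial UMIs, were dropped. The 896 and 989 with the highest doublet scores were removed, because the automatic threshold marked 0. Both libraries were clustered together (scanpy 1.11.5, leidenalg 0.10.2, 2000 variable genes, 30 components, 15 neighbours, resolution 0.6), without integration. The tumor cell states are clusters of this step. A second clustering at 0.4 within tumor and fibroblast-like cells gave the fibroblast-like sub-states and could move cells to the unnamed ones. Classes were named from marker lists by a scoring rule set after the data were seen, and 28 and 11 macrophage-like and 108 and 64 unnamed cells stayed out of the comparisons. UMIs were summed per class or state and library. Ratios are log2 of CPM plus 1, for genes with at least 30 UMIs in a pair of sums. The counting intervals are exact 95% Poisson (levels), Clopper-Pearson (shares) and conditional binomial (ratios, without the added 1). States that held 50 or more cells from both libraries were compared one by one. The ratios, their calls and bounds and the thinning were tested on simulated counts, and the clustering and naming of cells were not. TMM factors came from edgeR 4.0.16 and gene positions from GENCODE M21, which held 99.8% of the IDs.

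The members and lists were chosen with earlier results of these data known. All members are named; of other lists, up to 3 genes with the highest and 3 with the lowest ratio in tumor cells, the 10 genes most like the members' mean, and others where a result turns on them, chosen after their values were seen. Some results are not reported here.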

Additional observations from a re-analysis of the deposited data

Results flagged for a closer look

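For 5 members the difference between the libraries went one way in tumor cells and the other way in another class, each by at least 1.5-fold. The difference between the classes was not tested, and with 1 library per group it has no replicate check. Log2 ratios, Dll1+ over Dll1-, in pooled epithelial-like cells and in fibroblast-like cells were 0.70 and -0.72 for Ifit1, 1.23 and -0.73 for Ifit3, 2.16 and -1.21 for Ifi27l2a, 0.62 and -0.96 for Cmpk2, and 1.17 and -0.63 for Parp14. Ifi27l2a was also lower in Krt5-led cells, at -1.15. Within the 5 shared tumor cell states the mean ratios of the same 5 members were below 0 as well.

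Cells that entered no comparison also expressed the members. They summed to 5370 CPM in the 28 macrophage-like cells of the Dll1+ library and 4160 CPM in the 11 of the Dll1- library. In the unnamed cells they summed to 5050 CPM (108 cells) and 5440 CPM (64 cells).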

How the results depend on the processing

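The members' median over the shared tumor cell states, -0.90 with 21 members at least 1.5-fold lower, kept its direction in every alternative that gave it a value. The pooled tumor cell values did not keep theirs. Their median of 0.21 was -0.049 with TMM factors, 0.0021 centred on all genes, 0.58 with cells thinned to 2000 UMIs, 0.39 without the Ifit-led state and 0.36 in the 50% of cells lowest in markers of other classes. It was -0.90 with the shared states weighted alike and -0.83 without the Prpmp5/Cxcl10-led state, an alternative added after the data were seen. The 6 higher members became 14 thinned, 1 with states alike and 0 without the Prpmp5/Cxcl10-led state. The all-gene share higher, 20.6%, became 25.3%, 5.06% and 19.9% in the same order. The 1 lower became 5 (TMM), 4 (centred), 2 (resolution 1.2), 21 (states alike), 2 (lowest 50%) and 22 (without the Prpmp5/Cxcl10-led state). The all-gene share lower, 5.88%, became 10.2%, 10.1%, 6.05%, 2.07%, 7.31% and, without the Prpmp5/Cxcl10-led state, 5.05%. With states alike and without that state, in this order, Ifit1 turned to -0.77 and -0.75, Ifit3 to -0.50 and -0.59, Parp14 to -0.40 and -0.10 and Cmpk2 to -0.27 and -0.88, and Ifi27l2a turned to -0.98 with states alike. Bst2, Ifit2, Oas2, Usp18 and Zbp1 kept their sign under all alternatives run. The cause of these shifts was not tested.

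In Krt5-led cells the 14 lower members were 7 thinned and 9 with doublets left in, and the 0 higher were 2 (doublets), 1 (at most 10% mitochondrial UMIs) and 1 (clustered without interferon genes). All genes were then lower at 12% and 7.32%, and higher at 15.9%, 16.1% and 16%, in the same order. In fibroblast-like cells the 10 lower were 6 (pseudocount of 10 CPM), 5 (thinned) and 6 (doublets), and the 0 higher were 1 (doublets). All genes were then lower at 2.1%, 9.26% and 5.12%, and higher at 8.78%, in the same order. In endothelial-like cells the 5 higher were 3 (pseudocount of 10 CPM) and 2 (doublets), the 1 lower was 2 (no filter) and 4 (doublets), and the median turned to -0.085 (doublets). All genes were then higher at 5.31% and 11.6%, and lower at 11.9% and 4.94%, in the same order. In pericyte-like cells the 6 higher were 3 (doublets) and 10 (at most 10% mitochondrial), the 1 lower was 2 (centred), 2 (no filter), 0 (thinned), 3 (doublets) and 0 (at most 10% mitochondrial), and the median turned to -0.20 (doublets). All genes were then higher at 18.9% and 19.1%, and lower at 6.54%, 9.24%, 6.43%, 4.45% and 3.46%, in the same order. The 1 member, Ifit2, higher in the mean over shared states was 0 with a pseudocount of 10 CPM, thinned, clustered without interferon genes and at resolution 1.2. The share of tumor cells with at least 5 members, 68.4% and 65.1%, was 51.6% and 34.3% thinned to 1000 UMIs, 81.7% and 87.3% for at least 3 members, 49.6% and 29.98% for at least 8, and 40.2% in the Dll1+ library without the Prpmp5/Cxcl10-led state.

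No paired analysis was possible because each group is 1 library. With 1 tumor per group, tumor, library, batch and label cannot be told apart. The Dll1+ library was shallower per cell, and members under 30 UMIs in a class were not compared.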
